A study of Rattus norvegicus with 56 samples.

Results

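The genes described here are those of the motile cilium, taken by a rule on their symbols. A gene was a member when a transcript cluster of the array carried its symbol alone and the symbol began with Cfap, Dnah, Dnai, Dnal, Drc, Rsph, Tekt or Odad, and Zbbx, Capsl, Clxn, Foxj1 and Ccdc39 were added by name. This gave 62 members on 67 transcript clusters, out of 14557 genes with a cluster of their own and 36685 clusters in all. The brightest cluster stood for each gene. The members were 33 Cfap genes, 8 Tekt genes (tektins, tektin-like proteins and the tektin-binding Tektip1), 5 dynein intermediate chains (Dnai), 4 Drc genes, 3 Odad genes, 3 Rsph genes, 2 Dnal genes, the dynein heavy chain Dnah9, and 3 of the 5 genes added by name (Zbbx, Capsl and Clxn). Foxj1 and Ccdc39 were not analysed here.

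Motile cilia beat by means of an axoneme, a bundle of microtubule doublets that carries dynein motor arms, radial spokes, the nexin-dynein regulatory complex and many smaller cilia and flagella associated proteins. In the hypothalamus such cilia stand on the ependymal cells that line the third ventricle, where they move the cerebrospinal fluid along the wall. FOXJ1 and the RFX factors are the known transcription factors of this gene programme in vertebrates.

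The samples were medial hypothalami of male Wistar rats aged 3 months, hybridised to 56 Affymetrix Rat Gene arrays in 13 groups. Rats of the VG groups had a subdiaphragmatic vagotomy and rats of the SH groups a sham operation, and both recovered for 30 days. Other rats were injected under the skin for 10 days with celecoxib (CEL), SC-560 (SC560), indometacin (INDOM) or saline (NaCl), at doses not given in the sources used here. On the next day each of these rats received, into the peritoneum, either 10 µg lipopolysaccharide (LPS) in 100 µl saline or saline alone (NaCl), and tissue was taken 120 min later. In the name of a group the procedure comes first and the last injection second. There were 5 VG LPS, 3 VG NaCl, 4 SH LPS, 4 SH NaCl, 5 CEL LPS, 5 CEL NaCl, 5 SC560 LPS, 5 SC560 NaCl, 3 INDOM LPS, 5 INDOM NaCl, 4 NaCl LPS and 3 NaCl NaCl arrays, and 5 arrays of rats with no procedure (CNT). In the titles the group names begin a new round with array 41. The 40 arrays before it and the 16 from it on were therefore taken as a first and a second set, and what divides them is not stated.

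Some arrays stood apart or went against their labels. The median of 13 LPS response genes lay 0.41 to 1.54 above the mean of the 56 arrays (in log2 units) in 20 of the 26 arrays labelled LPS. In the other 6 (SH LPS array 6, VG LPS arrays 11 and 12, CEL LPS array 21, INDOM LPS arrays 49 and 50) it lay between -0.70 and -0.34. In 28 of the 30 arrays labelled saline or CNT it lay between -1.26 and -0.25, but it was 1.14 in CNT array 4 and 1.13 in SC560 NaCl array 36. Comparisons described below between groups that hold them are therefore also given without these 8 arrays. Group levels, the covariation and the comparison of the array sets are given with them only. VG LPS array 46 had choroid plexus genes at 2.73 and medial hypothalamus genes at -1.91 from the mean of the 56 arrays. Pairwise correlations of the arrays over all clusters were 0.932 to 0.976.

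Of the 62 members, 41 had a mean above that of the median cluster (4.08 on the log2 scale), and the member means ran between 2.59 and 7.23. None of the 3 Odad genes was above it, against 22 of the 33 Cfap genes, 4 of the 8 Tekt genes and all 4 Drc genes. The members with the brightest probes were Dnal1 (a light chain of the outer dynein arm), Cfap20 (a protein of the seam that joins the doublet's tubules), Cfap298, Cfap90 and Cfap418. As for the labelled tissue, 13 of the 14 measured medial hypothalamus genes, Oxt and Avp among them, were above the median cluster, as were 35 of 53 further motile cilia genes and all 9 measured genes of the ependymal list, some of which (S100b, Nnat) are not particular to ependyma. Brightness also depends on the probes, so these are descriptions and give no order of expression between genes. Tissue was bulk, so fewer ependymal cells and less RNA per cell cannot be told apart.

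As examples of motifs that were found near the start of some members, the 100 bases before the start of 5 of them are given, in lower case with the motif in capitals, from RefSeq on the GRCr8 build. Odad3, a subunit of the complex that docks the outer dynein arm, holds a whole X-box, the site of the RFX factors. Cfap161 (a protein inside the doublet tubules) shows only 1 arm of the X-box in full here. So do Cfap44 (part of the tether of an inner dynein) and Drc1 (the base of the nexin-dynein regulatory complex). In these last 2 genes the bases before that arm resemble the other arm but do not match it in full. Cfap43, the partner of Cfap44 in that tether, holds the forkhead core in the windows of 2 of its 4 annotated starts, 1 of which is shown. All 5 lie on the minus strand.
Odad3, chr8:28810512-28810611: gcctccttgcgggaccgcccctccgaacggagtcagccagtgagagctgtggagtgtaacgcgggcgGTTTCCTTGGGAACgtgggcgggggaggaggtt
Cfap161, chr1:147177822-147177921: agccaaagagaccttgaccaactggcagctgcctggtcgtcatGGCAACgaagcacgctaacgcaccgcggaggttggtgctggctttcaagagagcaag
Cfap44, chr11:69789906-69790005: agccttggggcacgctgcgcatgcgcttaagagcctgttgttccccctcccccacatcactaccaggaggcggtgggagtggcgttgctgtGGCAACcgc
Drc1, chr6:31779257-31779356: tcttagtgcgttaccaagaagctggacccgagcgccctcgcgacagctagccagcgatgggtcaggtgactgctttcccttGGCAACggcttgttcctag
Cfap43, chr1:256653703-256653802: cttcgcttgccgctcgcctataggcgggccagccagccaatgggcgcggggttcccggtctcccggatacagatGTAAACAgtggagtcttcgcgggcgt

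Promoter windows were given for 50 of the 62 members (78 windows, since a gene can have several starts), each of 250 bases before and 50 after a start. The X-box arm GTTGCC, taken alone and on either strand, was in the windows of 20 of these 50 genes (40.0%), against 13.1% of the 27457 genes in the table. Within 100 bases before the start it was found for 13 of 50 members (26.0%) and 4.95% of all genes, a distance chosen after the positions were seen. The whole X-box, with both arms around a spacer and any base as the fourth letter of the first arm, can overlap the arm taken alone. It was in windows of 4 members, Odad3, Cfap96, Cfap298 and Cfap20dc (8.00%), against 0.488% of all genes. The stricter form, whose first arm is GTTGCC, was in 3 members (6.00%) and 0.346% of all genes. The forkhead core TGTTTAC, a motif of the family to which FOXJ1 belongs, was in 5 members, Cfap43, Dnali1, Tekt3, Cfap251 and Cfap20 (10.0%), against 4.13% of all genes. These are matches of letters and were not tested.

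In the model across all clusters no member passed an adjusted p of 0.05 (limma, Benjamini-Hochberg over the 36685 clusters) in any of the 28 comparisons made. Of all clusters, 0 to 0.00818% passed in the 25 surgery and drug comparisons. The share was 0.00273% for VG LPS minus VG NaCl and for the LPS effect in VG minus that in SH. The figures were 0.395% for LPS against saline pooled over all procedures and 0.627% between the array sets. The moderated F test over the 13 groups called 0.0709% of all clusters and no member. At an unadjusted p under 0.05 this F test held for 17 of the 62 members, or 27.4%, against 6.72% of all clusters, and for 13 members without the 8 arrays, against 6.71%. The smallest F test p among the members was that of Clxn (adjusted p = 0.165), which encodes calaxin, a calcium-binding protein of the outer dynein arm, and Cfap43 and Rsph4a followed (adjusted p = 0.427 each). Members move together between arrays of a group, as given at the end, so the members at an unadjusted p are not independent of each other. All counts below are to be read with that. The share of all clusters also shifts between refits, so a refit count given without its share is a description only. Of the 36685 clusters 21032 carry no symbol, while every member does. A share of all clusters can therefore differ from that of named genes.

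Across the 13 groups the cilia genes were highest in SH NaCl. The median over the 62 members of the deviation from the 56-array mean averaged -0.09 ± 0.06 log2 units in VG NaCl (SD, n = 3), against 0.29 ± 0.15 in SH NaCl (SD, n = 4). It averaged 0.07 ± 0.10 in VG LPS (SD, n = 5), 0.06 ± 0.05 in SH LPS (SD, n = 4) and 0.04 ± 0.13 in CNT (SD, n = 5). In the 8 drug and saline pretreatment groups this mean lay between -0.09 and 0.02. By array the VG NaCl values were -0.17, -0.06 and -0.06, and the SH NaCl values were 0.17 (array 8), 0.16 (array 43), 0.45 (array 44) and 0.40 (array 45). Arrays 44 and 45 were the highest of the 56, with 56 and 52 of the 62 members above their own mean, and the third was CNT array 4 (0.23), one of the arrays against its label. The lowest 2 arrays were CEL NaCl arrays 29 (-0.28) and 26 (-0.22).

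**Figure D1:**
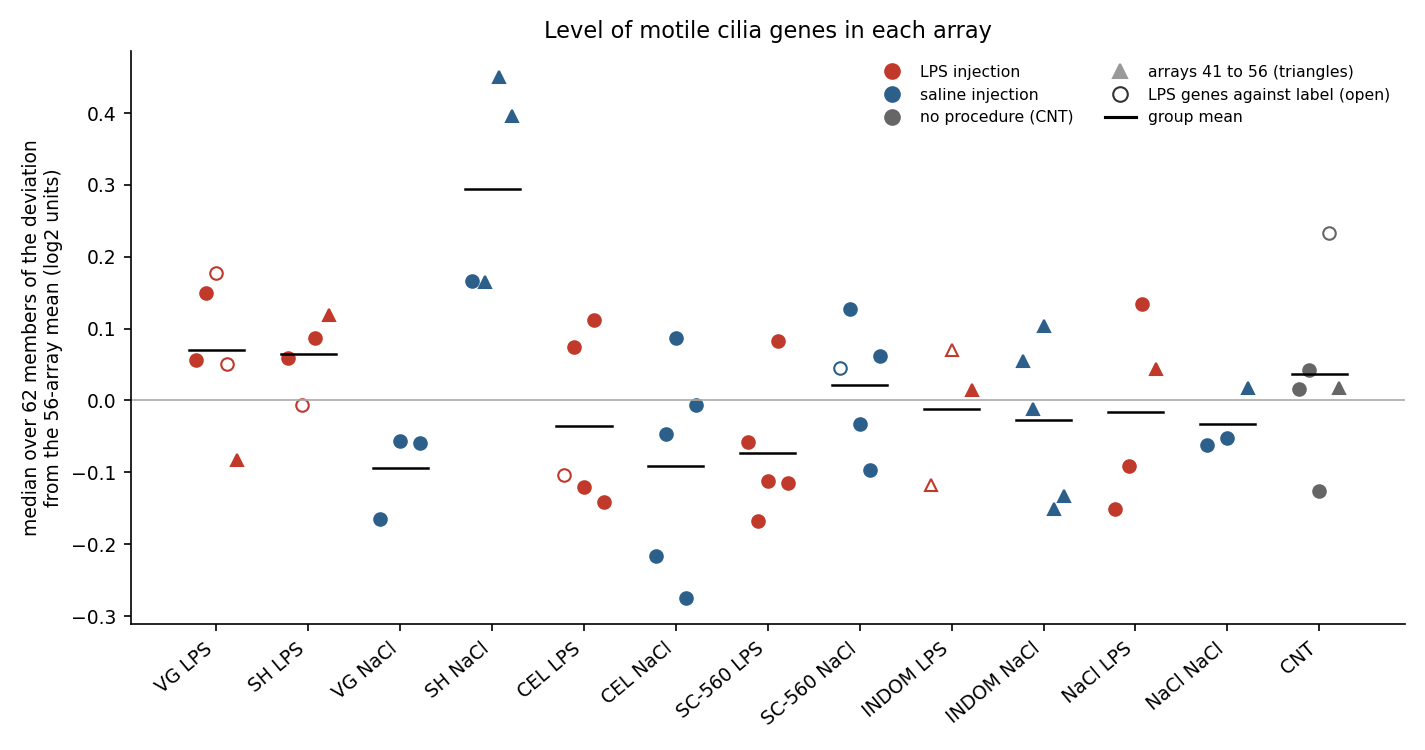
Median over the 62 members of the deviation from the 56-array mean (log2 units) in each array, by group; the bars are group means, triangles are arrays 41 to 56 and open symbols are the 8 arrays whose LPS response genes go against their label. VG NaCl averages -0.09 and SH NaCl 0.29, with arrays 44 and 45 at 0.45 and 0.40.

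The comparison of VG NaCl with SH NaCl sets vagotomy against a sham operation without an inflammatory stimulus. Most arrays of the groups lie in different array sets, so operation and set are not separated. Of the 62 members 53 were lower and 9 higher in VG NaCl, with a median log2 difference of -0.31, while the median of all clusters was 0.00. At an unadjusted p under 0.05, 25 members (40.3%) were lower, against 4.05% of all clusters, and 1 member, Dnai2, was higher, against 3.92% of all clusters. Of the 14557 genes with a cluster of their own, 755 were lower and 372 higher at that p, with a median difference of -0.03. The arrays of the groups did not overlap for 17 members, all lower in VG NaCl (27.4%), against 5.18% of all clusters lower without overlap, and 4.08% higher without overlap, where no member lay. Among the 41 members above the median cluster the difference had a median of -0.36, with 21 lower at an unadjusted p under 0.05, and among the 21 dimmer members the median was -0.27, with 4 lower. The smallest adjusted p of a member was 0.268.

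Cfap43 showed the smallest p. Its log2 intensity was 4.61, 3.99 and 4.91 in the VG NaCl arrays, against 5.42, 5.51, 6.15 and 5.61 in the SH NaCl arrays, so that every VG NaCl array was below every SH NaCl array. The difference was -1.17 ± 0.23 (SE), or 2.25 times lower (adjusted p = 0.268). In VG LPS it averaged 5.02 ± 0.34 (SD, n = 5), in SH LPS 5.23 ± 0.18 (SD, n = 4) and in CNT 5.24 ± 0.19 (SD, n = 5), between the saline-injected surgery groups.

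Zbbx, a B-box zinc finger gene known from ciliated cells, had 3.45, 2.86 and 3.45 in the VG NaCl arrays, against 4.07, 4.60, 4.55 and 4.12 in the SH NaCl arrays. Its groups did not overlap, and the difference was -1.08 ± 0.23 (SE; adjusted p = 0.268). Its mean over the 56 arrays lies below that of the median cluster. Dnali1, a light intermediate chain of the inner dynein arms, had 4.54, 4.50 and 5.08 in VG NaCl, against 5.43, 5.58, 5.89 and 5.67 in SH NaCl, again without overlap. Its difference was -0.93 ± 0.20 (SE; adjusted p = 0.268).

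Drc12, a gene of the nexin-dynein regulatory complex, had 5.31, 5.34 and 5.63 in VG NaCl, against 5.83, 6.18, 6.26 and 6.56 in SH NaCl, with a difference of -0.78 ± 0.18 (SE; adjusted p = 0.307). Cfap161 had 4.33, 4.87 and 5.15 in VG NaCl, against 5.26, 5.52, 6.19 and 6.07 in SH NaCl, with a difference of -0.97 ± 0.23 (SE; adjusted p = 0.314). Clxn had 5.79, 4.89 and 4.85 in VG NaCl, against 5.91, 5.99, 6.58 and 6.12 in SH NaCl, with a difference of -0.98 ± 0.23 (SE; adjusted p = 0.322). None of these 3 genes had overlapping groups. Capsl, which encodes a calcium-binding protein, did overlap. It had 4.38, 4.13 and 4.75 in VG NaCl, against 4.31, 5.24, 5.83 and 5.50 in SH NaCl, with SH NaCl array 8 among the VG NaCl values.

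**Figure D2:**
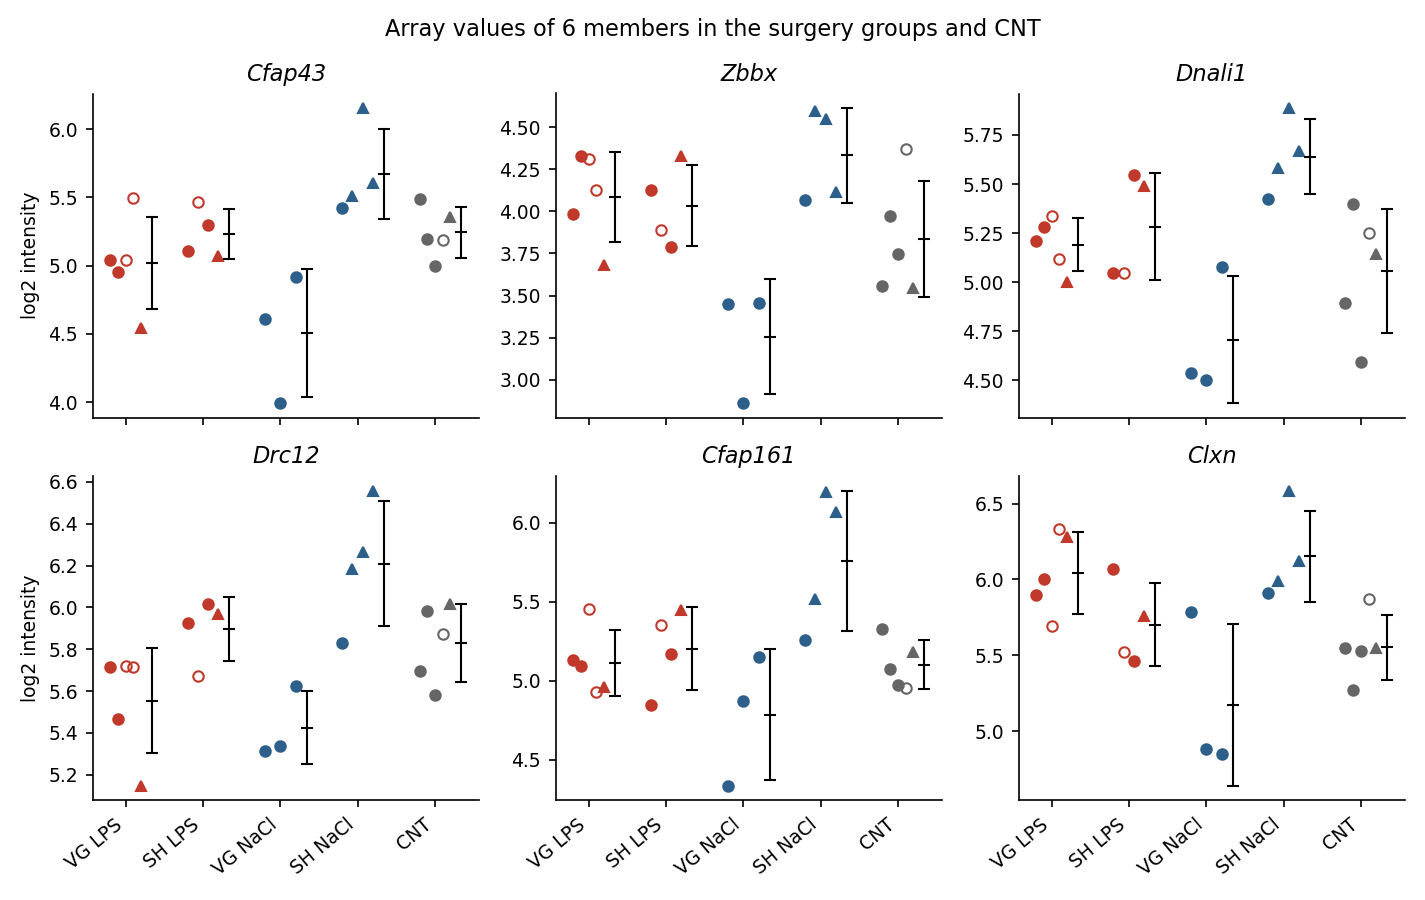
Log2 intensity of 6 members in every array of the surgery groups and CNT; black marks give the group mean and SD, triangles are arrays 41 to 56, open symbols are arrays whose LPS response genes go against their label, and each panel has its own axis. In all 6 panels every VG NaCl array lies below every SH NaCl array. Cfap43, Zbbx, Dnali1, Drc12 and Cfap161 are shown for their smallest p in this comparison, so their separation gives no added support. Of the 62 members 17 had no overlap.

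By role, the lower values in VG NaCl were spread over many parts of the axoneme. Of the 33 Cfap genes 31 were lower, 15 of them at an unadjusted p under 0.05, and Cfap44 (-0.97 ± 0.23, SE), Cfap141 (-1.02 ± 0.37, SE) and Cfap300 (-0.71 ± 0.26, SE) were among these. All 4 Drc genes were lower, 2 of them at that p, among them Drc1 (-0.56 ± 0.20, SE). Of the 3 radial spoke head genes Rsph4a had -1.17 ± 0.33 (SE; adjusted p = 0.403), Rsph1 -0.44 and Rsph6a 0.32, and only the first had an unadjusted p under 0.05. Of the 5 dynein intermediate chains Dnai1, Dnai3 and Dnai4 were lower at that p, whereas Dnai2, which pairs with Dnai1 in the outer arm, had 3.92, 3.50 and 4.25 in VG NaCl, against 3.34, 3.25, 3.55 and 3.43 in SH NaCl (difference 0.50 ± 0.22, SE; adjusted p = 0.588). Its groups overlapped. No Tekt and no Odad gene had an unadjusted p under 0.05. Their medians were -0.13 over the 8 Tekt genes, most of them tektins, which form filaments inside the doublets, and -0.11 over the 3 Odad genes.

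**Figure D3:**
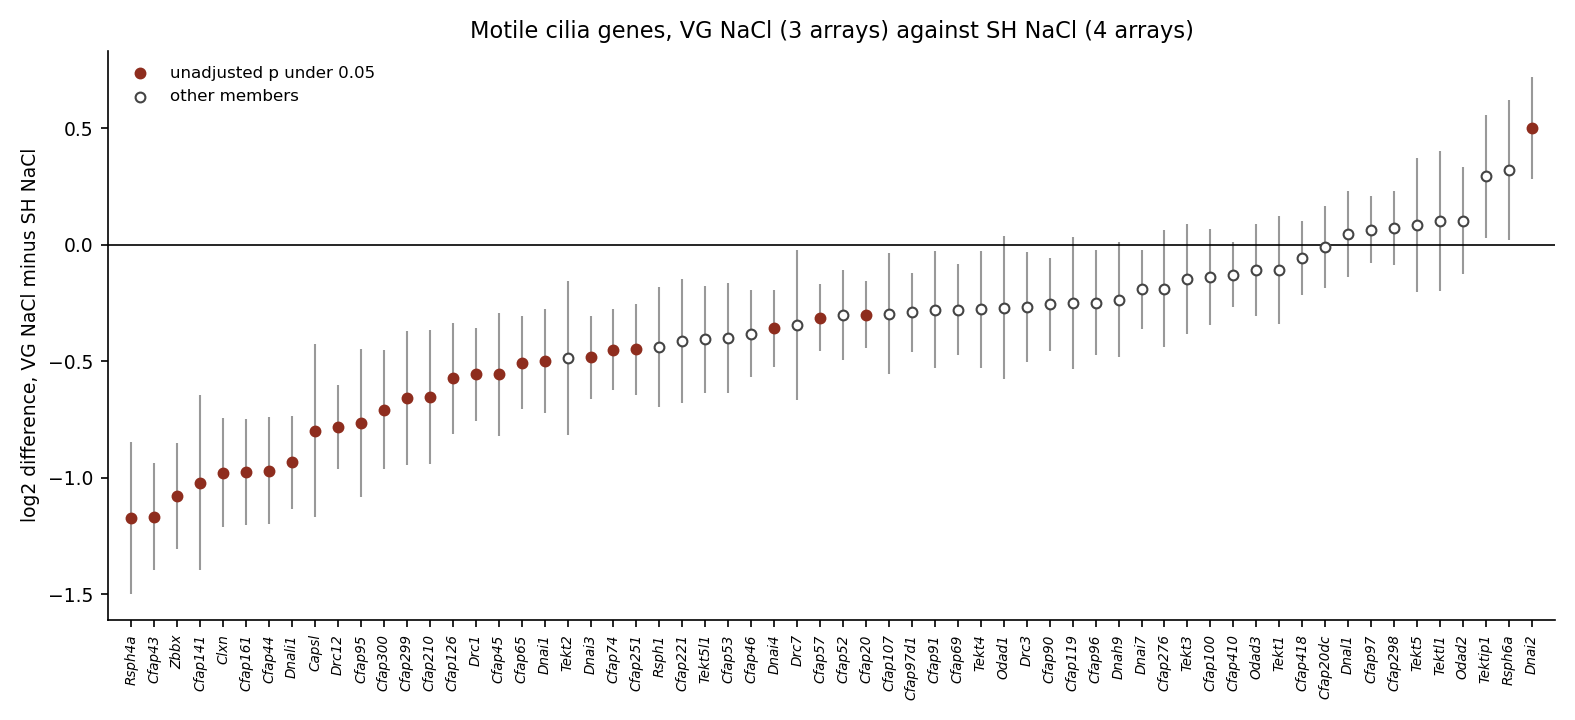
Log2 difference of VG NaCl minus SH NaCl for the 62 members, in order of size, with standard errors; filled symbols have an unadjusted p under 0.05 and none passed adjustment over all clusters. The values run between -1.17 (Rsph4a, Cfap43) and 0.50 (Dnai2), and 53 lie below 0.

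All 3 VG NaCl arrays belong to arrays 1 to 40, and 3 of the 4 SH NaCl arrays to arrays 41 to 56. The title of VG NaCl array 13 carries an added 2, taken here as a second run, and no SH NaCl title does. With the array set as a block the median was -0.30 and 20 members were lower at an unadjusted p under 0.05, against 4.94% of all clusters in that fit. Within arrays 1 to 40, where SH NaCl is array 8 alone and is assumed to vary like the other groups, the median was -0.22, with 46 members lower, 5 of them (2.08% of all clusters) and 2 higher (2.6% of all clusters) at that p. There Cfap43 had a difference of -0.92, Zbbx of -0.81 and Dnali1 of -0.72, and Capsl turned to 0.12. Without SH NaCl arrays 44 and 45, left out after their values were seen, the median was -0.24 and 9 members were lower at that p, against 2.46% of all clusters. Without the arrays against their labels, none of which is in these groups, 23 were lower at that p, against 4.28% of all clusters. Leaving out single arrays gave 15 to 24 such members, the 15 without VG NaCl array 14 and 16 without SH NaCl array 44, and medians of -0.40 to -0.30. Over the 6 groups with arrays in both sets, the second set minus the first had a member median of 0.02, with 5 members higher and 2 lower at an unadjusted p under 0.05, against 6.66% of all clusters higher and 9.15% lower. Leaving out single arrays moved this median between -0.01 (without SH NaCl array 8) and 0.07 (without VG LPS array 46). In the full fit of the sets the nearest to the adjusted threshold were Cfap251 (0.36 ± 0.09, SE; adjusted p = 0.0721) and Rsph4a (0.62 ± 0.16, SE; adjusted p = 0.0769).

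Most other genes of ciliated cells lay on the same side. They came from lists that do not contain the members but share genes such as Enkur with each other. These lists, like the members, were chosen with earlier results of these data known. The further motile cilia genes also vary with the members between arrays (median r of 0.34), so they give no independent support. Of 53 further motile cilia genes 46 were lower in VG NaCl than in SH NaCl, with a median of -0.35 and 22 at an unadjusted p under 0.05, none at an adjusted one. At an unadjusted p under 0.05, 4.05% of all clusters were lower and 3.92% higher. Of the 14557 genes with a cluster of their own, 755 were lower and 372 higher at that p. Counts of 2 or 3 in the short lists are descriptions only. All 9 genes of the ependymal list were lower (median -0.43, 4 at that p), as were 13 of 14 genes of tanycytes, the other cells of the ventricle wall (median -0.21, 2 at that p). Of 21 genes of the primary cilium and intraflagellar transport 17 were lower (median -0.21, 3 at that p), and of 13 regulators of multiciliated cells 9 were lower (median -0.10, none at that p). The 16 choroid plexus genes had a median of 0.04 and the 14 medial hypothalamus genes of -0.24, with none at that p. By array the ependymal list lay between -0.33 and -0.13 in VG NaCl, against 0.15 to 0.29 in SH NaCl. The groups were also apart for the tanycyte list (-0.11 to -0.08 in VG NaCl, 0.07 to 0.23 in SH NaCl). The same held for the primary cilium list (-0.13 to -0.07 in VG NaCl, 0.09 to 0.25 in SH NaCl). The choroid plexus list lay between -0.10 and 0.07 in VG NaCl, against -0.25 to 0.11 in SH NaCl. The oligodendrocyte list lay between -0.16 and 0.10 in VG NaCl, against -0.41 to 0.05 in SH NaCl. The microglia list lay between -0.22 and 0.03 in VG NaCl, against -0.04 to 0.44 in SH NaCl, and the astrocyte list between -0.18 and 0.00, against -0.03 to 0.15. The endothelium and mural cell list lay between -0.21 and 0.26 in VG NaCl, against 0.14 to 0.48 in SH NaCl. The part of these lists in the difference was not tested.

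In SH NaCl most members were also higher than in CNT. The members had a median log2 difference of 0.24, with 54 higher, 14 of them at an unadjusted p under 0.05 (22.6%), against 2.57% of all clusters, and none lower at that p, against 2.36% of all clusters. Genes with a cluster of their own also stood higher, 8719 of 14557, with a median of 0.04. At that p 518 of these genes were higher and 181 lower. The smallest p of a member was that of Dnali1, which averaged 5.64 ± 0.19 in SH NaCl and 5.06 ± 0.32 in CNT (SD, n = 4 and 5), a difference of 0.58 ± 0.17 (SE; adjusted p = 0.982). Cfap161 had 0.66 ± 0.20, Cfap57 0.41 ± 0.13, Tekt2 0.89 ± 0.29 and Clxn 0.60 ± 0.21 (log2 difference and SE, adjusted p = 0.982 each). Without SH NaCl arrays 44 and 45 the median was 0.12, and without the arrays against their labels it was 0.31, with 20 members higher at that p (3.29% of all clusters). The 14 members at that p became 6 without SH NaCl array 44 and 7 without either SH NaCl array 45 or CNT array 3. VG NaCl against CNT, which shares the VG NaCl and CNT arrays with these comparisons, had a median of -0.15, with 7 members lower at an unadjusted p under 0.05, against 2.69% of all clusters, and 1 higher, against 3.39%. Cfap97d1 (-0.56 ± 0.16, SE) and Cfap43 (-0.74 ± 0.22, SE; adjusted p = 0.587 each) had the smallest p, and Dnai2 was the higher one (0.69 ± 0.21, SE). Without the arrays against their labels its median was -0.10 and 3 members were lower at that p. Leaving out VG NaCl array 14 alone gave 4 such members, and leaving out CNT array 3 alone gave 11.

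The groups labelled VG LPS and SH LPS differed little over the members, but 3 of their 9 arrays go against their label. VG LPS minus SH LPS had a median of -0.01, with 30 members higher and 32 lower, 2 higher at an unadjusted p under 0.05 (2.44% of all clusters) and 2 lower (1.7% of all clusters). The 4 genes were Cfap100 (0.47 ± 0.18, SE) and Drc1 (0.41 ± 0.18, SE), which were higher, and Cfap90 (-0.38 ± 0.18, SE) and Drc12 (-0.34 ± 0.16, SE), which were lower. Their adjusted p was 1.00 each. With the arrays against their labels left out the median was -0.06, with 23 members higher and 39 lower, and 1 in each direction at an unadjusted p under 0.05 (2.89% of all clusters higher and 2.3% lower). Without VG LPS array 46 the median was 0.01, with 2 members higher and none lower at that p.

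The effect of LPS was also set out within each operation, over comparisons that share the saline arrays with those above. In SH rats, LPS minus saline had a member median of -0.21, with 46 lower, 8 of them at an unadjusted p under 0.05, against 1.85% of all clusters, and none higher at that p, against 1.57%. Cfap52 (-0.56 ± 0.18, SE), Cfap53 (-0.62 ± 0.22, SE), Cfap161 (-0.56 ± 0.21, SE) and Cfap45 (-0.65 ± 0.25, SE), all of which encode proteins inside the doublet tubules, had the smallest p (adjusted p = 1.00 each). Without SH NaCl arrays 44 and 45 the median was -0.076. The 8 members at that p became 2 without array 44, 3 without array 45, 5 without SH LPS array 5 and 15 without SH NaCl array 8. Leaving out the arrays against their labels gave a median of -0.16, with 7 members lower at that p (2.04% of all clusters). In VG rats, LPS minus saline had a median of 0.13, with 45 higher, 12 of them at an unadjusted p under 0.05, against 3.46% of all clusters, and none lower at that p, against 3.56%. Clxn had 5.90, 6.01, 5.69, 6.33 and 6.28 in VG LPS, against 5.79, 4.89 and 4.85 in VG NaCl, a difference of 0.87 ± 0.22 (SE; adjusted p = 0.419) in which 1 VG NaCl array lay within the VG LPS values. Zbbx had 3.98, 4.33, 4.31, 4.13 and 3.68 in VG LPS, against 3.45, 2.86 and 3.45 in VG NaCl, without overlap (0.83 ± 0.22, SE; adjusted p = 0.428), and Drc1 had 0.68 ± 0.19 (SE; adjusted p = 0.496). VG LPS and VG NaCl did not overlap for 6 members higher in VG LPS, against 1.98% of all clusters, and 1 lower, against 2.05%. Without the arrays against their labels the median was 0.12, with 7 members higher and 1 lower at that p, and without VG LPS array 46 it was 0.23. Without VG NaCl array 14 there were 6 members higher at that p.

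The LPS effect in VG minus that in SH had a member median of 0.42, with 50 of the 62 above 0. At an unadjusted p under 0.05, 16 were above 0, against 2.78% of all clusters, and 1, again Dnai2, below it, against 2.6% of all clusters. Clxn had the smallest p, with 1.32 ± 0.31 (SE; adjusted p = 0.703), and Zbbx (1.13 ± 0.30, SE), Drc1 (0.97 ± 0.27, SE), Cfap300 (1.11 ± 0.34, SE) and Dnali1 (0.84 ± 0.26, SE) followed. The value rests on the same saline arrays as the comparison of VG NaCl with SH NaCl: it was 0.30 in arrays 1 to 40, 0.27 without SH NaCl arrays 44 and 45, and 0.30 without the arrays against their labels, with 11 members above 0 at that p.

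**Figure D4:**
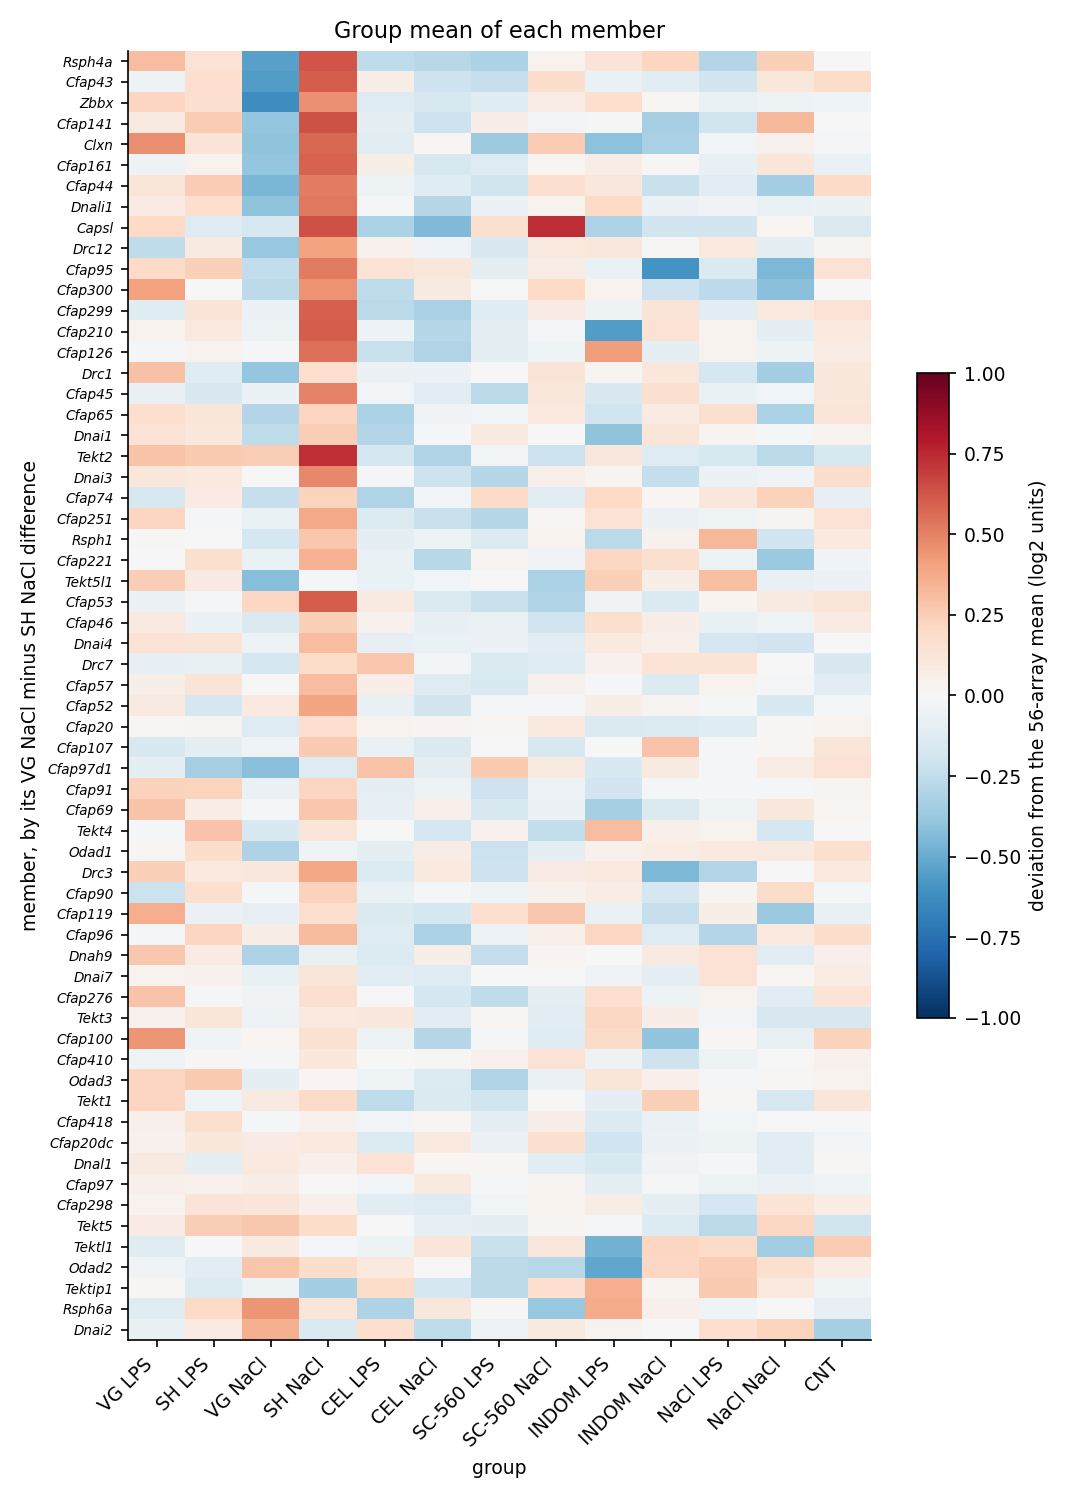
Mean of each member in each of the 13 groups as a deviation from its 56-array mean (log2 units, red above and blue below), members in the order of their VG NaCl minus SH NaCl difference. VG NaCl is blue over the upper members and SH NaCl red over most members, while the drug groups show scattered cells.

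In the drug groups the member medians of the LPS effect lay between -0.11 and 0.07. LPS minus saline had a member median of 0.02 after saline pretreatment, 0.07 after celecoxib, -0.11 after SC-560 and 0.06 after indometacin. Of the 62 members 33 were higher after saline pretreatment, 40 after celecoxib and 37 after indometacin, and 43 were lower after SC-560. Members at an unadjusted p under 0.05 numbered 2 after saline pretreatment (4.05% of all clusters), 0 after celecoxib (5.57%), 2 after SC-560 (3.62%) and 7 after indometacin (5.42%). The smallest p after SC-560 was that of Clxn, at -0.62 ± 0.21 (SE; adjusted p = 1.00). After indometacin Odad2 (-0.72 ± 0.20, SE), Dnai1 (-0.52 ± 0.17, SE), Tektl1 (-0.69 ± 0.24, SE), Cfap210 (-0.70 ± 0.26, SE) and Cfap100 (0.58 ± 0.21, SE) led, with an adjusted p of 0.915 each. That group has 3 LPS arrays, 2 of them against their label, and without the 8 arrays 3 members were left at an unadjusted p under 0.05 (3.75% of all clusters). Without them the medians were 0.02 after saline pretreatment, 0.08 after celecoxib, -0.10 after SC-560 and 0.05 after indometacin, and 2, 1 and 2 members had that p in the first 3 of these. The LPS effect of a drug minus that of saline pretreatment had 2 members at that p for celecoxib (4.28% of all clusters), 1 for SC-560 (3.64%) and 8 for indometacin (4.42%), and Tektl1 was among them each time (-0.70 ± 0.33, -0.86 ± 0.33 and -1.22 ± 0.35, SE). These counts were 2, 2 and 3 without the 8 arrays. The 3 values of Tektl1 subtract the same LPS effect after saline pretreatment, where it was 0.53, so they are not independent of each other. Its mean of 2.91 lies below that of the median cluster.

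Each drug was also set against saline pretreatment. With the saline injection 3 members had an unadjusted p under 0.05 for celecoxib (4.62% of all clusters), 7 for SC-560 (3.96%) and 5 for indometacin (5.51%), led by Cfap95 (0.56 ± 0.24, SE), Cfap119 (0.65 ± 0.20, SE) and Cfap221 (0.53 ± 0.19, SE). These numbered 2, 2 and 5 without the arrays against their labels. With the LPS injection they numbered 2 for celecoxib (4.61%), 2 for SC-560 (4.19%) and 5 for indometacin (4.98%), led by Cfap65 (-0.48 ± 0.21, SE) and, for both other drugs, Odad2 (-0.51 ± 0.18 and -0.77 ± 0.21, SE). These were 1, 3 and 2 without the 8 arrays. All 8 INDOM arrays are in the second set, all CEL and SC560 arrays in the first, and the saline pretreatment groups have 1 array each in the second. With the array set as a block the members for indometacin were 3 with the saline injection (4.26% of all clusters) and 3 with the LPS injection (3.32%). In that fit of the pretreated groups, the sets are joined only through the saline pretreatment arrays.

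Celecoxib, an inhibitor of COX-2, and SC-560, an inhibitor of COX-1, were set against each other. CEL NaCl minus SC560 NaCl had a member median of -0.12, with 42 of the 62 lower and 4 members at an unadjusted p under 0.05 (4.88% of all clusters), and CEL LPS minus SC560 LPS a median of 0.04 and 4 members (4.5% of all clusters). Capsl differed most in the saline pair. It had 3.19, 4.05, 4.76, 3.86 and 4.85 in CEL NaCl, against 5.53, 4.96, 5.39, 5.62 and 5.12 in SC560 NaCl, without overlap (-1.18 ± 0.29, SE; adjusted p = 0.616). In CEL LPS its values lay between 3.86 and 4.85 and in SC560 LPS between 4.31 and 5.18, so these groups overlapped. Capsl had the largest SD of the 62 members over the 56 arrays (0.57). The share of all clusters without overlap in the saline pair was not counted. The medians were -0.13 and 0.05 without the arrays against their labels, with 2 and 3 members at that p. Pooled over the 6 procedures, LPS minus saline had a member median of -0.02, with 3 members higher at an unadjusted p under 0.05 (2.52% of all clusters) and 1 lower (2.38%). These were Tekt5l1 (0.25 ± 0.10, SE), Cfap100 (0.20 ± 0.08, SE) and Tekt4 (0.21 ± 0.10, SE) above, and Cfap45 (-0.22 ± 0.09, SE) below, with adjusted p between 0.726 and 0.982. The pooled median was also -0.02 without the arrays against their labels, with 1 member higher and none lower at that p.

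The cilia genes varied together from array to array. After group means were removed, each member was correlated with the median of the other bright members over the 56 arrays, which share their normalisation. The median Pearson r was 0.34 over the 62 members and 0.42 over the 41 bright ones, against 0.04 over the 14495 other genes. An r of 0.5 or more was found for 13 members (21.0%) and 72 other genes (0.497%). Cfap43 (r = 0.65), Cfap45 (r = 0.65), and Dnai4 (r = 0.62) were the highest, and Tektip1 (r = -0.27), Cfap410 (r = -0.20) and Cfap20dc (r = -0.18) the lowest. The 3 lowest are themselves above the median cluster.

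The other genes most like the members included cilia genes. Of the 72 with an r of 0.5 or more, 14 stand on the list of further motile cilia genes and 1 on that of regulators. The 10 highest were Dynlrb2 (a dynein light chain, r = 0.72), Lrrc23 (a radial spoke protein, r = 0.70), Spag6l (a protein of the central apparatus, r = 0.69), Daw1 (a dynein assembly factor, r = 0.69), Ak9 (r = 0.68), Fam216b (r = 0.67), Lrrc74b (r = 0.67), Spata18 (r = 0.67), Ccdc146 (r = 0.65) and Dct (r = 0.64). Of these 10, 6 stand on the list of further motile cilia genes, over whose 53 measured genes the median r was 0.34. Dct, known from melanin synthesis, had r = -0.06 within arrays 41 to 56. The median r was 0.34 for the medial hypothalamus list and also for the 3 astrocyte genes, 0.22 for the ependymal list, -0.12 for the choroid plexus list and -0.24 for the oligodendrocyte list. The part of these lists in the covariation of the members was not tested.

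**Figure D5:**
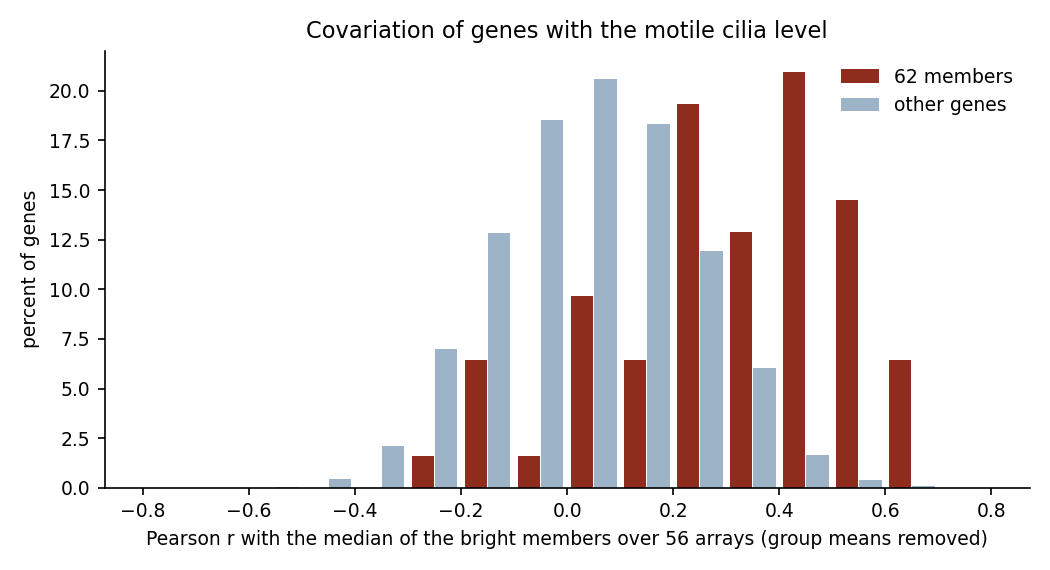
Percent of the 62 members and of the 14495 other genes in each interval of 0.1 in Pearson r with the median of the bright members, over 56 arrays with group means removed. The members have a median of 0.34 and the other genes of 0.04.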

How the data were processed

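The authors scanned 1 array per sample and deposited RMA values, made with Affymetrix Expression Console (no version given in the sources used here), as linear intensity per transcript cluster between 1.75 and 7820. The log2 of each deposited intensity was taken here, and nothing else was rescaled. Gene names came from the platform annotation: 14824 clusters had 1 symbol, 829 several and 21032 none. Values are probe brightness, so differences were tested only within a gene, and brightness was used across genes only to name and split members, as a description. Arrays carry no counts, and their number limits the precision.

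Comparisons were fitted with limma 3.58.1 in R 4.3.3 (lmFit, eBayes) on all 36685 clusters: the 21 arrays of the surgery groups and CNT (10 comparisons), the 35 arrays of the pretreated groups (15), the 51 injected arrays (LPS with the procedure as a term), the arrays of the 6 groups in both sets, and an F test over all 56 arrays. P-values were adjusted by Benjamini-Hochberg over all clusters at 0.05. The labels name each array as a sample of its own and do not say how animals were assigned to arrays, so p-values measure the spread between arrays. The fits were tested on simulated data. Other settings tried were unmoderated analysis of variance, a variance trend, array weights, a second quantile normalisation, brighter clusters alone, every cluster of a member, other sets of arrays, leaving out arrays of a second run or a whole procedure, the array set as a block and leaving out arrays.

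The members, gene lists and comparisons were chosen with earlier results of these data known. Named members were Zbbx, Capsl, Clxn, Cfap43 and Dnali1, the 5 brightest, up to 5 per comparison with the smallest unadjusted p under 0.05 (otherwise the smallest), and the 3 highest and 3 lowest in covariation. Other members named were chosen after their values were seen. Promoter windows are from RefSeq (GRCr8), in which 50 of the 62 members were found.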

Additional observations from a re-analysis of the deposited data

Results flagged for a closer look

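Within the 10 groups of 4 or 5 arrays, the median over the members and the log2 intensity of Cfap43, Zbbx, Dnali1, Capsl and Clxn were searched for a single array far from the rest of its group, by the gap to the nearest array as a share of the group's range (Dixon's 95% value). Of 60 such sets 1 stood out, where chance gives about 1 in 20. Zbbx in INDOM NaCl array 53 was 4.38, against 3.68 to 3.83 in the other 4 arrays of that group. None of the 4 comparisons of an LPS effect between procedures had a member with an adjusted p under 0.05.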

How the results depend on the processing

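No member passed an adjusted p of 0.05 in the surgery, drug and pooled LPS comparisons or in the F test under any setting tried. Between the array sets none passed in the full model, 2 (Cfap251 and Rsph4a) passed among clusters above the median and 0 to 1 when an array was left out (Rsph4a without NaCl LPS array 18). The median difference of the members kept to within the spread between arrays of a group (0.11 log2 units) in 644 of 649 refits. It moved for SH LPS minus SH NaCl (-0.076), the LPS effect in VG minus SH (0.27) and SH NaCl minus CNT (0.12) without SH NaCl arrays 44 and 45, and for the LPS effect in VG minus SH in arrays 1 to 40 (0.30) and without the 8 arrays against their labels (0.30). Both exclusions were chosen after the data were seen. Capsl reversed in VG NaCl minus SH NaCl within arrays 1 to 40 (0.12). The cause of these shifts was not tested. The median r of the bright members was 0.46 with group means kept, 0.42 and 0.39 within the first and second array sets, and 0.44 without CEL NaCl array 26 and CNT array 3, the farthest 2. No paired analysis was possible because the labels give array numbers, none of which is shared between groups. With 3 to 5 arrays a group and 21 members below the median cluster, a difference that missed the threshold is not shown to be absent.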
